A study of Homo sapiens with 4 samples.

Results

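H3K27ac is acetylation of lysine 27 on histone H3, a mark that acetyltransferases place on the nucleosomes of active promoters and enhancers. Promoters that carry it are read by bromodomain proteins and are usually engaged by RNA polymerase II. It is found most widely at CpG islands, stretches of DNA in which the CG dinucleotide has been kept because it is little methylated in the germline. Many genes also have further start sites inside the gene body, often in CpG-poor DNA, which are used in fewer tissues.

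Described here are the promoter peaks of H3K27ac that were called in the control cells and had no counterpart in the *SNHG1*-depletion cells, referred to below as sgCtrl-only promoter peaks. The ChIP-seq was made in SK-N-BE(2)C, an established human neuroblastoma line with *MYCN* amplification. There were 2 samples of sgCtrl, which had received Cas9 with a non-targeting control gRNA and are labelled wildtype, and 2 samples of sgSNHG1, which had received Cas9 with a pair of gRNAs against *SNHG1*, a small nucleolar RNA host gene, and are labelled *SNHG1* knockout. The paper states that this approach repressed *SNHG1* expression but could not remove it completely. Both kinds of cells passed puromycin selection and were expanded from sorted single cells, so each is a clone. Differences between clones cannot be told apart from the effect of the depletion. The sources used here do not say which sgSNHG1 clone was profiled. The authors pooled the replicates of a group before they called peaks, so that each group is represented here by 1 list, in which the replicates cannot be told apart. No test of the groups was therefore made from these lists, and every interval of a share is a 95% Wilson interval that covers counting error only. Medians carry 95% order-statistic intervals over peaks, which do not cover the spread between replicates.

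A member was a peak of the sgCtrl list on chromosomes 1 to 22 that lay within 1000 bp of a GENCODE protein-coding start site and more than 1000 bp from every peak of the sgSNHG1 list. The part of chromosome 4 from base 51800000 on and the part of chromosome 9 below base 28000000 were left out. The members were thus selected on the peak calls themselves, and the absence of a call means that the authors' threshold was not reached, not that the mark was absent. Of 16301 sgCtrl promoter peaks, 1625 were members, so that 9.97% of the sgCtrl promoter peaks had no sgSNHG1 peak within 1000 bp. The other 14676, called shared here, had one. In the opposite direction 948 of 15939 sgSNHG1 promoter peaks, or 5.95%, had no sgCtrl peak within 1000 bp. Both lists together held 113818 peaks, 63699 of sgCtrl and 50119 of sgSNHG1.

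The depth of the samples is unknown. The number of fragments over each summit (the pileup) and the background that the peak caller set against it were recovered from the fold enrichment and the −log10 p of each peak. The lowest background was 4.89 fragments for sgCtrl and 4.66 for sgSNHG1, and the lowest pileup was 19 and 18. As a check of the labels, the sgCtrl list held 1 peak over *SNHG1* (chromosome 11, 62851978 to 62855953, minus strand), and the sgSNHG1 list held 0. The sgCtrl peak had a pileup of 76 and a fold enrichment of 3.44. Of sgCtrl promoter peaks with a fold enrichment of 3.19 to 3.71, 18.4% had no sgSNHG1 peak within 1000 bp, so the check is weak. Of 28 adrenergic transcription factors, which mark the neuronal state of neuroblastoma, 28 had an sgCtrl promoter peak. The same was true of 29 of 40 mesenchymal factors. Over all protein-coding genes in the regions used it was true of 12213 of 18146, so the mesenchymal share was not below that of all genes.

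The members differed in the density of CG dinucleotides around their summits, and the following sequences show the range. Each is 151 bases of the GRCh38 plus strand centred on the summit, with every CG in capitals, and was chosen after the values were seen among windows free of annotated untranslated exons. *RIMKLB*, *DACH1* and *RGMA* show the CpG-rich kind, at the canonical or an annotated further start of the gene.
*RIMKLB*, chr12:8698331-8698481: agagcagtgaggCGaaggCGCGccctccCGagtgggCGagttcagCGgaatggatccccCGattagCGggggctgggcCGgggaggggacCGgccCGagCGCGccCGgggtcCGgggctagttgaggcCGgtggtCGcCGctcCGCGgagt
*DACH1*, chr13:71865498-71865648: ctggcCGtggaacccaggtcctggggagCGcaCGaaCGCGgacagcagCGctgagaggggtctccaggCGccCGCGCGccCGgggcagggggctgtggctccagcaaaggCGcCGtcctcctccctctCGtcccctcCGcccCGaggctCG
*RGMA*, chr15:93073277-93073427: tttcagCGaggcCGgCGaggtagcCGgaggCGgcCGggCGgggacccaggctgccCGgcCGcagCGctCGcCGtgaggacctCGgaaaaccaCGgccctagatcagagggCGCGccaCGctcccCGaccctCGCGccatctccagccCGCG
*COL1A2*, the gene of a chain of type I collagen, lay between the extremes.
*COL1A2*, chr7:94394349-94394499: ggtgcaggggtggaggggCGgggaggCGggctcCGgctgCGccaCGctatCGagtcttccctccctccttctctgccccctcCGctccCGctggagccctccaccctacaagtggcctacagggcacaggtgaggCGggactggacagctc
*HDAC7*, *SEMA4G* and *KCNK7* show the CpG-poor kind, inside introns near further starts or, for *KCNK7*, near the canonical start.
*HDAC7*, chr12:47803175-47803325: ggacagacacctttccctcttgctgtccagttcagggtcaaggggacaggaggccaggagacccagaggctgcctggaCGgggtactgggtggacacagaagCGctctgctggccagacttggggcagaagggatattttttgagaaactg
*SEMA4G*, chr10:100973040-100973190: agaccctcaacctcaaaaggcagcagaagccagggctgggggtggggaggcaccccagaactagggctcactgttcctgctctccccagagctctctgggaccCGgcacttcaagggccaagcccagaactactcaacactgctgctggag
*KCNK7*, chr11:65595264-65595414: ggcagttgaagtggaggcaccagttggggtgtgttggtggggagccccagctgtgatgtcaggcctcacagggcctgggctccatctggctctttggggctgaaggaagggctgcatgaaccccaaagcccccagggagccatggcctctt
For contrast, the highest shared promoter peak of *GATA2*, an adrenergic transcription factor gene, is printed last.
*GATA2*, chr3:128489418-128489568: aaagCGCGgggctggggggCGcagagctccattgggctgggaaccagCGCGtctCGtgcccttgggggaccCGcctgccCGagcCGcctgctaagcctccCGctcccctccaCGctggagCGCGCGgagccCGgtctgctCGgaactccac
The windows of *RIMKLB*, *DACH1* and *RGMA* held 20, 17 and 22 CG dinucleotides. That of *COL1A2* held 9, and those of *HDAC7*, *SEMA4G* and *KCNK7* held 2, 1 and 0. The *GATA2* window held 16.

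The members were low peaks. Their median fold enrichment, the ratio of summit to local background, was 3.26 against 5.23 for the shared peaks. The median pileup was 43 fragments against 80, and the median length was 307 bp against 560 bp. When the sgCtrl promoter peaks were divided into 10 equal bins by −log10 p, 41.1% of the lowest bin, 27.4% of the second, 18.3% of the third and 8.71% of the fourth were members. In the fifth and sixth bins the share was 3.13% and 0.920%, and in each of the 3 highest bins it was 0. In the sgSNHG1 list 21.3% of the lowest bin was unmatched. Its share was below that of the sgCtrl list in the 4 lowest bins, but not in the fifth (4.27%) and seventh (0.502% against 0.0613%). A −log10 p of 25 or more was reached by 8263 sgCtrl promoter peaks, of which 17 were members. These values are a description, since height decides whether a peak is called. To set members beside shared peaks of like height, the 4 lowest bins were used below, a choice made after the data were seen. They held 1558 members and 4963 shared peaks, with median fold enrichments of 3.22 and 3.49 and median backgrounds of 12.1 and 12.3 fragments. The match is not complete, since members had a median −log10 p of 10.8 and a median length of 302.5 bp, and shared peaks 13.6 and 355 bp, so the values of single bins are given where they bear on a difference. Values of the members below are over all 1625 unless the bins are named.

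**Figure D1:**
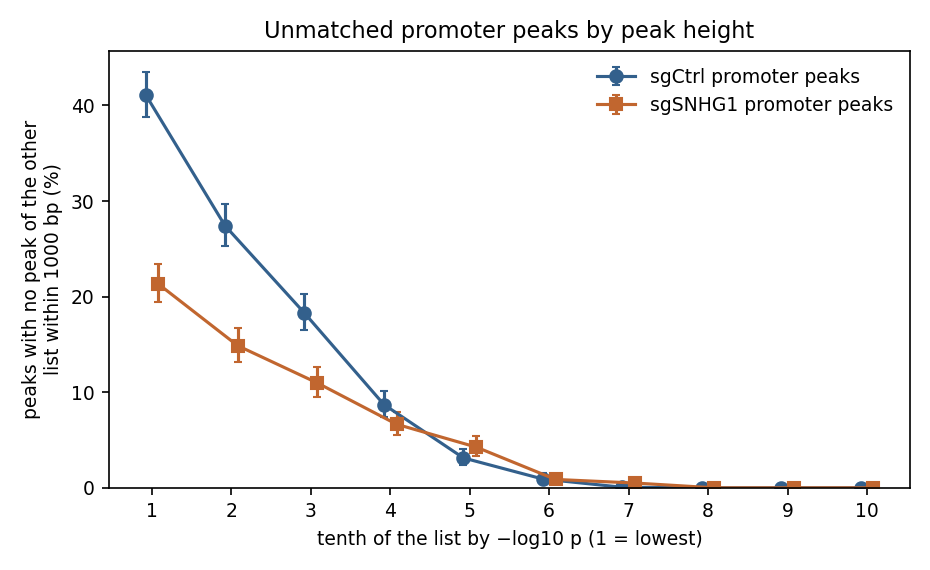
Promoter peaks without a peak of the other list within 1000 bp, in percent (y axis), in 10 equal bins of each list by −log10 p from lowest to highest (x axis). Points are shares and bars their 95% Wilson intervals, for the sgCtrl list (circles) and the sgSNHG1 list (squares). The sgCtrl share goes from 41.1% in the lowest bin to 0 in the 3 highest bins.

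The member of highest fold enrichment lay at *RIMKLB* (chr12:8698003-8698670), which encodes a ligase that joins glutamate to N-acetylaspartate. Its pileup was 62 fragments over a background of 4.99, a fold enrichment of 10.5, and the nearest sgSNHG1 peak was 71802 bp away. The next was at *DACH1* (chr13:71865278-71866432), a transcription factor gene of the dachshund family and the single adrenergic factor of the list with a member. There 1155 bp were covered, the pileup was 50, and no sgSNHG1 peak lay within 860609 bp. *POU5F2* (chr5:93741231-93741712), a POU homeobox gene, had 46 fragments over 4.89. *TES* (chr7:116210467-116210986), which encodes a LIM-domain protein of focal adhesions, had 44 over 4.89. Its nearest sgSNHG1 peak was 651634 bp away. *RNF182* (chr6:13924972-13925309), an E3 ubiquitin ligase gene, had 43 over the same background.

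*SLFN11*, whose product blocks stalled replication forks and sensitises cells to DNA-damaging drugs, had 2 sgCtrl promoter peaks and both were members. The higher (chr17:35373948-35374524) had 44 fragments over 5.33 and lay 94490 bp from the nearest sgSNHG1 peak. Genes of metabolic enzymes among the 25 members of highest fold enrichment were *NMNAT3*, which makes NAD in mitochondria, with 36 fragments over 4.97, and *ABAT*, the GABA transaminase, with 48 over 7.31. *LGMN*, a lysosomal cysteine protease gene, had 53 over 7.14. *CBS*, which makes cystathionine, had 37 over 4.89, but 82.6% of the 30-base stretches around its summit occurred more than once in the reference. That share was also 82.6% at *NPIPA9* and *RSPH10B2* and 48.3% at *PRR23A*, and exceeded 10% at 7 of the 25, so the place of these peaks is uncertain. The zinc finger genes *ZNF490*, *ZNF878* and *ZNF439*, all on chromosome 19, had 57, 43 and 50 fragments.

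Seen together, these 25 peaks had pileups of 33 to 62 and fold enrichments of 5.77 to 10.5, and 15 of them sat at the lowest background of the list. At 19 of the 25 genes the sgSNHG1 list had no promoter peak at all, against 771 of all 1470 genes with a member. For 20 of the peaks the nearest sgSNHG1 peak was more than 10 kb away, and the median distance over all members was 8611 bp. A summit of island-type sequence, meaning a GC content above 50% and a CpG observed/expected ratio above 0.6 within 250 bp on either side, was found at 19. The same number, 19, lay at a canonical start, the start of the transcript that GENCODE marks as canonical for the gene.

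**Figure D2:**
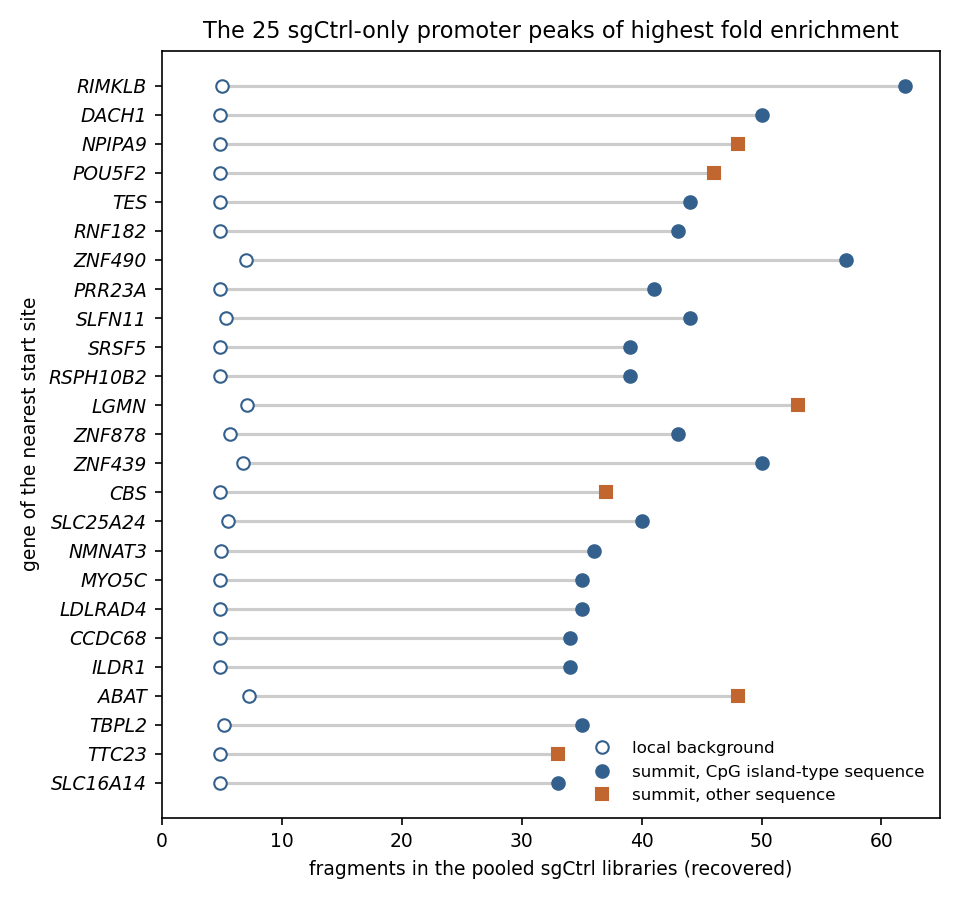
The 25 sgCtrl-only promoter peaks of highest fold enrichment, 1 per gene (y axis), with the recovered number of fragments at the summit (filled symbols) and in the local background (open circles) on the x axis. Circles mark the 19 summits of island-type sequence and squares the others, and all summits lie between 33 and 62 fragments over backgrounds of at most 7.31.

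Most members did not resemble these. They were split into 4 equal groups by fold enrichment. In the lowest group (1.60 to 2.64) 13.0% (10.1 to 16.6) of 407 members were of island-type sequence, in the second 21.4%, in the third 36.5%, and in the highest group (4.01 to 10.5) 60.1% (55.3 to 64.7) of 406. The share at a canonical start was 27.3% in the lowest and 71.2% in the highest group. Members with no other sgCtrl peak within 10 kb made up 2.70% of the lowest group and 66.7% of the highest. The median distance to the nearest sgSNHG1 peak was 3026 bp in the lowest group and 27807 bp in the highest. The median background was 33.2 fragments in the lowest group and 4.89 in the highest, and because a peak on a high background needs a higher pileup for the same p-value, background and fold enrichment are tied by the calling itself. Their part in the sequence differences was not tested. The background was a local one estimated within the pooled group, so isolation and distance may not be independent of fold enrichment. The shared peaks were not divided in this way, and whether the gradient is particular to the members was not tested. Along this order the members ranged from isolated CpG-rich peaks over the lowest background to CpG-poor peaks within well-marked neighbourhoods.

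**Figure D3:**
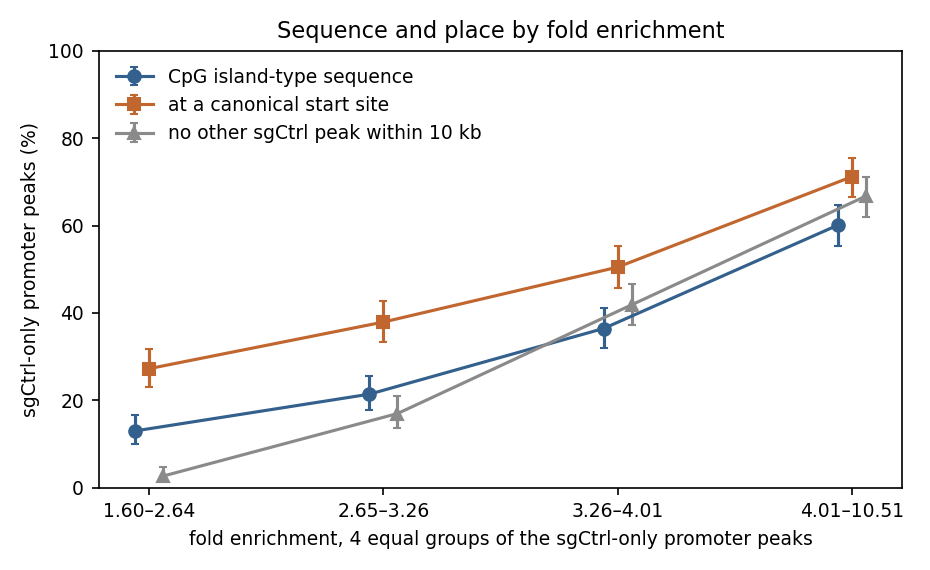
Features of the 1625 sgCtrl-only promoter peaks in 4 equal groups by fold enrichment (x axis), in percent of the members of each group (y axis) with 95% Wilson intervals. Island-type sequence (circles) goes from 13.0% to 60.1%, a canonical start (squares) from 27.3% to 71.2%, and the absence of another sgCtrl peak within 10 kb (triangles) from 2.70% to 66.7%.

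Within 10 kb of a member lay 1525 sgCtrl peaks outside promoters, of which 613 (40.2%, interval 37.8 to 42.7) had no sgSNHG1 peak within 1000 bp. This share was 38.4% over all 45453 sgCtrl peaks outside promoters in the regions used, and 31.9% (30.4 to 33.4) of the 3738 within 10 kb of a shared promoter peak of the 4 lowest bins. The nearest sgSNHG1 peak lay between 1 and 2 kb from 237 members, between 2 and 5 kb from 316, between 5 and 20 kb from 636, between 20 and 100 kb from 342, and farther from 94. The members closest to the limit were at *APBB1* (1003 bp), *PPIL4* (1008 bp) and *KAZN* (1014 bp). The peaks that just failed it were at *TMEM134* (999 bp), *DIPK1B* (998 bp) and *HSD17B14* (995 bp), and had fold enrichments of 2.19, 2.30 and 3.47, within the range of the members.

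The place of the members on their genes differed from that of shared peaks of like height mainly in the kind of start. A canonical start lay within 1000 bp of 46.7% of the members (44.3 to 49.1), of 83.2% of the shared peaks and of 72.7% (71.4 to 73.9) of the shared peaks in the 4 lowest bins. Of the sgSNHG1-only promoter peaks, 73.8% had one. With the 5′ end of the gene record as the single start site of a gene, a canonical start is counted only where it coincides with that end. By this changed measure the order turned, to 54.0% of the members and 45.9% of the shared peaks. With all start sites, the members were lower in each of the 4 lowest bins taken alone, for example 47.7% against 69.2% in the lowest and 39.4% against 74.7% in the fourth. Start sites on both strands were within reach of 2.22% of the members and of 10.5% of the shared peaks of the 4 lowest bins, so that bidirectional promoters were rare among the members. The summit lay in a coding exon at 29.2% of the members (27.01 to 31.4) and 19.5% (18.4 to 20.6) of the shared peaks of like height. It lay in an untranslated exon at 16.4% and 16.8%, in an intron at 45.4% and 46.6%, and outside every protein-coding transcript at 9.05% and 17.1%. Covering a start site was less frequent among members than among all shared peaks (31.5% against 41.5%), but within the 4 lowest bins the members were at 31.1% and the shared peaks at 28.1%.

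CpG density was lower in the members than in each set they were compared with. The median CpG observed/expected ratio was 0.409 (0.392 to 0.432) in the members, 0.762 in the shared peaks, 0.644 (0.634 to 0.655) in the shared peaks of like height, and 0.664 in the sgSNHG1-only promoter peaks. The median GC content was nearly level between members and shared peaks of like height, at 63.9% and 63.5%. Island-type sequence was present at 32.7% of the members (30.5 to 35.1), at 53.8% (52.4 to 55.2) of the shared peaks of like height and at 55.4% of the sgSNHG1-only peaks. Within the 4 lowest bins one by one, the share was 31.0%, 36.2%, 32.2% and 30.3% in members and 46.0%, 52.2%, 54.5% and 59.4% in shared peaks. The difference was present at both kinds of start. At canonical starts in these bins 53.0% of the members and 64.8% of the shared peaks were of island type, and at other starts 15.0% and 24.4%.

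Turned around, 32.5% of the sgCtrl promoter peaks with a ratio of at most 0.2 and 28.9% of those between 0.2 and 0.4 had no sgSNHG1 counterpart. Between 0.8 and 1 the share was 4.05%. In the sgSNHG1 list the share without an sgCtrl counterpart was 15.3% at ratios of at most 0.2 and 3.69% between 0.8 and 1. Within the 4 lowest bins the contrast was smaller, at 39.0% and 15.9% for the sgCtrl list and 17.8% and 12.9% for the sgSNHG1 list, the last pair with overlapping intervals. Below 65% GC the lists ran in opposite directions with GC content. Below 50% GC, 6.34% of sgCtrl and 20.1% of sgSNHG1 promoter peaks were unmatched, and between 60% and 65% GC the shares were 15.6% and 6.52%. Above 65% GC the share went down in both lists, to 4.31% and 2.24% above 75% GC. Whether the GC content of the libraries takes part in the differences was not tested.

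**Figure D4:**
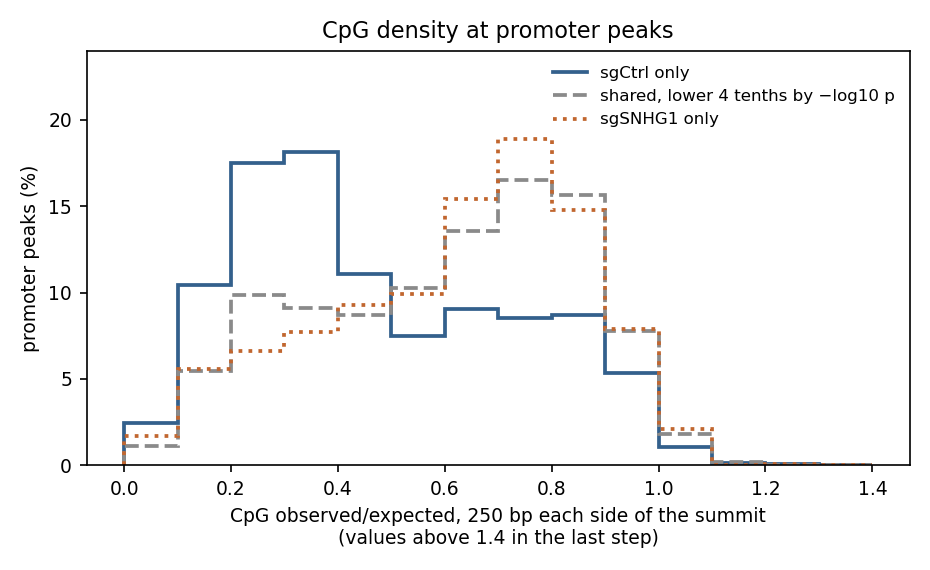
CpG observed/expected ratio within 250 bp on either side of the summit (x axis) against the percent of promoter peaks in each step of 0.1 (y axis), for the 1625 sgCtrl-only peaks (solid), the 4963 shared peaks in the 4 lowest bins of −log10 p (dashed) and the 948 sgSNHG1-only peaks (dotted). The sgCtrl-only peaks have their mode below 0.4 and a second, lower plateau above 0.6, where the other sets have their mode.

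Short sequence motifs were counted as exact matches on either strand within 250 bp on either side of the summit, and a match is a description of the letters only. CAGCTG, an E-box that bHLH factors of the neural lineage can bind, was found at 40.9% of the members (38.6 to 43.3), at 31.2% (29.9 to 32.5) of the shared peaks of like height, at 29.2% of the sgSNHG1-only peaks and at 28.1% of windows of the same size around the starts of all protein-coding genes. In the 4 lowest bins taken singly, members were at 39.8%, 40.7%, 44.6% and 42.3%, and shared peaks between 30.2% and 32.5%. The E-box of MYC and MYCN, CACGTG, was at 11.1% of the members, 10.4% of the shared peaks of like height and 11.04% of all promoters, with overlapping intervals. GGGCGG, the core of the SP and KLF sites, was at 55.1% of the members and 62.4% of the shared peaks of like height. The ETS core CCGGAAG was at 7.02% and 9.53%. TGACGTCA, the full cAMP response element, was matched at 0.0615% of the members and 0.766% of the shared peaks of like height, and AAGATGGCG, the longer form of the YY1 site, at 0.431% and 0.907%. GATAA was at 14.0% and 18.3%, TGACTCA, the AP-1 site, at 5.11% and 4.86%, and TATAAA at 4.25% and 5.16%. GCGCATGCG, the NRF1 site, was at 0.308% and 0.584% and CTCGCGAG, the ZBTB33 site, at 0.492% and 0.564%. The motifs of MYC and MYCN, SP and KLF, ETS, cAMP response element, YY1, NRF1 and ZBTB33 hold a CG. The members hold fewer CG dinucleotides, so the counts of those motifs are not independent of the CpG density. No motif was compared at a like CpG ratio, and whether the share of CAGCTG is tied to CpG density was not tested.

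At the level of genes, 12213 of 18146 protein-coding genes had an sgCtrl promoter peak. Of these, 1470 (12.0%) had at least 1 member, and 808 (6.62%) had no sgSNHG1 peak within 1000 bp of any start. Among the 1470 genes with a member, 771 had no sgSNHG1 promoter peak, while 699 (47.6%, interval 45.0 to 50.1) had one. A further 669 genes had an sgSNHG1 promoter peak and no sgCtrl promoter peak. There were 187 genes with 2 or more members and 20 with 3 or more. *KIF1A*, which encodes a kinesin motor of axonal transport, and *TFEB*, a transcription factor gene of lysosome formation, each had 4 members among 6 sgCtrl promoter peaks. Every one of the 3 sgCtrl promoter peaks was a member at each of *ASB2*, *DNHD1*, *FIBCD1*, *GNB3* and *PTPN6*. *MYT1L*, a neuronal zinc finger gene, had 3 members among 9, and *SEPTIN9* 3 among 23. The genes with several members were picked out after their values were seen.

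By chromosome, the share of members was highest on chromosome 19 (179 of 1131 sgCtrl promoter peaks, 15.8%, interval 13.8 to 18.1), followed by 22 (13.2%), 16 (12.8%) and 17 (12.6%). It was lowest on chromosome 18 (8 of 174, 4.60%) and 13 (5.07%). Chromosome 19 was also the highest in the opposite direction, with 10.0% of its sgSNHG1 promoter peaks unmatched.

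Gene lists were then read against the background of 12.0% of genes with a member. Genes of collagens, laminins and integrins, the proteins of the extracellular matrix and their receptors, stood highest. Of 52 with an sgCtrl promoter peak 18 (34.6%, interval 23.1 to 48.2) had a member, and 11 (21.2%) had no sgSNHG1 promoter peak, against 6.62% of all genes. By peaks rather than genes, 19 of 92 (20.7%, interval 13.6 to 30.02) were members, against 9.97%. Among the genes whose highest sgCtrl promoter peak lay in the 4 lowest bins, 15 of 21 in this list and 28.8% of all had a member. The share of the list depended on the settings. It was 21.3% against 8.45% of all genes with sgCtrl peaks of a −log10 p of at least 10, 17.8% against 7.72% with lists of equal size, and 21.7% against 6.56% with 1 start site per gene. The 2 type I collagen genes, which make the main fibre of connective tissue, both belonged to it. *COL1A2* (chr7:94394203-94394504) had 33 fragments over 4.89, with its summit 471 bp upstream of the canonical start, and *COL1A1* had 64 over 27.4.

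*COL4A3* and *COL4A4*, basement membrane collagen genes that stand head to head, shared 1 member (chr2:227164647-227164926) with 23 fragments over 4.89. *COL5A3* had 31 over 6.17, *COL26A1* 24 over 4.89 and *COL21A1* 23 over 4.89. *ITGA5* (chr12:54419023-54419455), the alpha subunit of a fibronectin receptor, had 26 over 5.43 across its canonical start. In these genes the sgSNHG1 list had no promoter peak. The members of *COL4A3* and *COL4A4* and of *COL21A1* (both with a −log10 p of 9.27), *COL26A1* (9.99) and *COL1A1* (9.15) lay below the stricter threshold of 10. Those of *COL1A2* (17.1), *COL5A3* (12.7) and *ITGA5* (10.5) lay above it. *LAMA5*, *LAMC3*, *ITGA3*, *ITGB2*, *ITGB4*, *ITGB5* and *COL16A1* had a member and had an sgSNHG1 promoter peak as well. *LAMA5*, a laminin chain gene, had 110 fragments over a background of 54.7 at the member listed, 1628 bp from an sgSNHG1 peak.

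Channel and transporter genes were also above the background when peaks of all heights were counted. A member was found at 20 of 80 potassium, sodium and calcium channel genes (25%, interval 16.8 to 35.5) and at 44 of 230 solute carrier genes (19.1%, interval 14.6 to 24.7). The sgSNHG1 list had no promoter peak at 8 of the 80 channel genes (10%, interval 5.15 to 18.5). The same held for 27 of the 230 solute carrier genes (11.7%, interval 8.19 to 16.5), against 6.62% of all genes. For the channel genes the interval held that background. Among genes whose highest sgCtrl promoter peak lay in the 4 lowest bins, 14 of 41 channel genes (34.1%) and 30 of 78 solute carrier genes (38.5%) had a member, against 28.8% of all genes. Such genes made up 41 of the 80 channel and 78 of the 230 solute carrier genes, against 3166 of 12213 of all. Whether either list stood above all genes at like height was not tested. Examples were *CACNG7*, a calcium channel subunit gene, with 27 fragments over 4.89, and *KCNJ9*, an inward rectifier gene, with 54 over 12.3. *SLC12A5*, the chloride extruder of mature neurons, had the second-longest member at 1665 bp, with 44 fragments over 12.2. *SLC1A6*, a neuronal glutamate transporter gene, had 29 over 4.89. *SLC2A1*, the glucose transporter of most cells, had a member with 59 over 25.1 and also had an sgSNHG1 promoter peak.

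Lists of neuronal genes had wide intervals that held the background. Of 51 genes of the synapse and neurotransmitter release 8 (15.7%, interval 8.17 to 28.01) had a member, 4 of them without an sgSNHG1 promoter peak. *GABBR2*, a GABA receptor subunit gene, had 27 over 5.38, *RAB3B* 26 over 5.28 and *NRXN3*, a neurexin gene, 20 over 4.89. Of 53 axon guidance genes 9 (17.0%, interval 9.20 to 29.2) had a member. *RGMA*, a repulsive guidance gene, had 23 over 4.89, *SEMA3B* 31 over 9.60, *SEMA4G* 27 over 7.86 and *EFNA1*, an ephrin gene, 71 over 30.6. These 4 had no sgSNHG1 promoter peak. *SEMA4A*, *SEMA4B*, *SEMA4D*, *CNTN2* and *PLXNB2* had a member and also had one. In the 4 lowest bins 5 of 20 synapse genes and 5 of 19 axon guidance genes had a member, against 28.8% of all genes.

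Several lists of broadly expressed genes stood below the background. Members were found at 1 of 70 DNA repair genes (*RECQL5*, 1.43%, interval 0.253 to 7.66), 1 of 51 primary cilium genes (*IFT140*), 1 of 58 histone genes (*H3C3*) and 1 of 56 cell cycle genes. The last was *CDKN1A*, the inhibitor of cyclin-dependent kinases known as p21. Its single sgCtrl promoter peak (chr6:36678815-36679155) had 32 fragments over 7.20 in CpG-rich DNA, and the nearest sgSNHG1 peak was 17659 bp away. Zinc finger genes of the ZNF series were at 22 of 361 (6.09%, interval 4.06 to 9.05). Genes with the prefixes of ribosomal proteins were at 3 of 89 (interval 1.15 to 9.45). These were *RPSA2*, *RPL3L* and *RPS6KA1*, of which the last encodes a kinase and not a ribosomal protein. Mitochondrial ribosomal protein genes were at 3 of 67, with an interval of 1.53 to 12.4 that held the background. The highest sgCtrl promoter peak lay in the 4 lowest bins at 12 of the 70 DNA repair genes and 95 of the 361 ZNF genes. Over all genes this held for 3166 of 12213. Of these genes, 0 of the DNA repair list, 11.6% of the ZNF list and 28.8% of all had a member. The other lists held few such genes. A member was found at 0 of 13 primary cilium, 1 of 10 cell cycle, 1 of 9 histone, 1 of 12 ribosomal and 2 of 15 mitochondrial ribosomal protein genes. Whether these lists, or the DNA repair list with its 12 such genes, stood below all genes at like height was not tested.

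Among regulators, 1 of 28 adrenergic transcription factors (*DACH1*) and 3 of 29 mesenchymal ones (*RUNX1*, *SMAD3* and *IRF1*) had a member. The intervals, 0.633 to 17.7 and 3.58 to 26.4, overlapped and both held the background. The highest sgCtrl promoter peak lay in the 4 lowest bins at 1 of the 28 adrenergic and 7 of the 29 mesenchymal genes. The mesenchymal members had 28, 50 and 43 fragments over 5.78, 12.1 and 10.5, none lay at a canonical start, and all 3 genes had an sgSNHG1 promoter peak. Of 46 genes of histone acetylation enzymes and readers 5 (10.9%) had a member. *CHD3*, *HDAC7*, *GATAD2A* and *CREBBP* were among them, and all 5 had an sgSNHG1 promoter peak. Of 30 apoptosis genes 2 (*CASP9* and *BMF*) and of 35 redox genes 2 (*GSS* and *SESN3*) had a member and an sgSNHG1 promoter peak. The member was the single sgCtrl promoter peak of *GSS*, 1093 bp from the nearest sgSNHG1 peak. TMEM genes were at 26 of 171 (15.2%), CCDC genes at 10 of 85 (11.8%), copies in segmental duplications at 3 of 28 and clustered protocadherins at 1 of 9.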

How the data were processed

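H3K27ac ChIP-seq of 2 sgCtrl and 2 sgSNHG1 samples of SK-N-BE(2)C was used, with groups taken from the labels. The authors trimmed the reads with cutadapt, aligned them to GRCh38 with BWA and combined the replicates of each group. They called peaks with MACS2 on paired-end fragments at a p-value of 1e-06, with duplicates kept. The recovered numbers of fragments can therefore include duplicates. The deposited lists give for each peak the fold enrichment of the summit over the local background (a ratio), the −log10 of the p-value as the authors' caller gave it, a whole-number score made by the authors' caller from the −log10 p, and the summit. The score and a q-value column were not used further. The depth per sample is unknown.

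Distances were counted in bases between interval edges. Start sites were the 72849 distinct ends of protein-coding transcripts of GENCODE release 44 in the regions used. Pileup and background were recovered on the assumption of a pseudocount of 1 and a Poisson p-value. Whole numbers of fragments, within 0.01, came out for 99.9% of the peaks of both lists. GC content and the CpG observed/expected ratio were taken over 501 bp around the summit, and repeated sequence was the share of 30-base stretches within 100 bp on either side that occur more than once in GRCh38. The software was pandas 2.3.3, numpy 2.4.6 and pysam 0.24.0 under Python 3.11.15, with scipy 1.17.1 for intervals, and distances and pileups were tested on simulated data, the former also against bedtools 2.31.1.

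With 1 pooled list per group no test was run. Shares carry 95% Wilson intervals and medians order-statistic intervals. The members and the 21 gene lists (10 written from general knowledge, 11 taken by symbol prefix) were chosen with earlier results of these data known. Named genes were the 25 members of highest fold enrichment, genes of the written lists with a member (foremost, up to 6 per list, those without an sgSNHG1 promoter peak), the 5 longest members and those nearest the distance limit. A few of these genes are not reported here. Genes named from prefix families, genes with several members, the printed sequences and the comparison within the 4 lowest bins were chosen after their values were seen. Alternatives were a stricter threshold, lists of equal size, other distances and start sites, merged peaks, chromosomes 4 and 9 left out, repeated sequence left out and other sequence windows.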

Additional observations from a re-analysis of the deposited data

How the results depend on the processing

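No paired analysis was possible because the peak lists used here pool both samples of a group, and for the same reason no replicate could be left out of them in turn. Of 107 values recomputed under an alternative, 65 stayed within the limits of the first value (a factor of 1.5 for counts, its 95% interval for shares and medians) and 42 moved. Of 77 values with a value of the shared peaks or of all genes beside them, 74 kept to the same side of it. Among the 77 are the fold enrichment and length of the members, which are tied to the selection on peak calls. With sgCtrl peaks of a −log10 p of at least 10 there were 1036 members (6.94% of sgCtrl promoter peaks) with a median fold enrichment of 3.42 and a median length of 331 bp, 523 genes had no sgSNHG1 promoter peak, and 21.3% of collagen, laminin and integrin genes had a member, against 8.45% of all genes. With lists of equal size these values were 931 (6.37%), 3.49, 338 bp, 476 and 17.8% against 7.72%, and 34.4% of the members covered a start site. With no overlap in place of 1000 bp the share of members was 14.5%, their fold enrichment 3.12, with 26.8% covering a start and 50.6% at a canonical one. With a separation of 3000 bp the share was 7.70%, the fold enrichment 3.47, 50.8% were at a canonical start and 36.7% of island type. With 3000 bp to a start site there were 2887 members (14.4%), with a fold enrichment of 3.04, 17.7% covering a start and 23.4% of island type. With summits within 1000 bp of a start, 34.1% covered one. With the 5′ end of the gene record as the single start there were 719 members (6.13%), with a fold enrichment of 3.64, 49.2% of island type, 38.0% with CAGCTG and 21.7% of the matrix genes with a member. Here 22.9% of members covered a start against 18.5% of shared peaks, and 54.0% were at a canonical start against 45.9%, so both differences changed direction. Under this setting a canonical start is counted only where it coincides with the end of the record, so its share is not the same measure as in the first setting. With peaks within 1000 bp merged the share was 11.2%, the fold enrichment 3.34, the length 321 bp, and 35.2% covered a start. Without repeated sequence the fold enrichment was 3.18. With 500 bp on either side of the summit 28.7% were of island type. In the 4 lowest bins of −log10 p, an alternative chosen after seeing the data, 71.4% of the matrix genes had a member against 28.8% of all, and the members covered a start site more often than the shared peaks. Members were low peaks, so the number of members rests on the authors' threshold and on the unknown depth of the pools.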
